A study of Haemulon flavolineatum and Haemulon macrostomum and Haemulon carbonarium with 36 samples.

Results

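The livers of 2 sister species of Caribbean grunts, Haemulon carbonarium (8 fish) and Haemulon macrostomum (11 fish), were compared isogroup by isogroup. All libraries that the labels assign to either species were used, 19 of the 36 in the series, and the 17 of H. flavolineatum were left out of the test. All fish were untreated wild animals from the same archipelago, taken within 2 days, and each gave 1 liver library. Their sex and age were not given, and the study states that no gonads had developed and that most H. macrostomum came from more exposed outer reefs, so species and place of capture cannot be told apart.

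The liver stores and converts the nutrients that reach it from the gut, makes bile acids from cholesterol, clears foreign compounds, and secretes most plasma proteins, among them carriers, clotting factors, protease inhibitors and complement. Its cells therefore devote much of their RNA to a few secreted proteins and keep up a large ribosome, secretory and lysosome machinery. TagSeq, the assay used, sequences 1 fragment close to the 3′ end per transcript, and longer transcripts therefore do not gather more counts. Reads were counted per isogroup, a cluster of assembled isoforms that stands for a gene.

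Libraries of H. carbonarium held 722995 to 1930321 counts and those of H. macrostomum 1149810 to 3252882, and 6861 of 58532 isogroups had enough counts to be tested. Of these, 795 (11.6%) differed between the species at an adjusted p under 0.01 in edgeR's quasi-likelihood test, 309 higher (4.50%) and 486 lower (7.08%) in H. carbonarium, and such isogroups are said here to be called. Levels did not overlap between the species in 3.96% of all tested isogroups. Among the called isogroups 269 (3.92% of those tested) had levels that did not overlap between the species, and 594 (8.66%) were called in every fit with 1 fish left out. Levels are in CPM, counts per 1000000 of the TMM-scaled tested total of each fish, and log2 fold changes are those of H. carbonarium over H. macrostomum, positive where H. carbonarium was higher. The p-values set the difference between the species against the spread between these wild fish. Every fish was most alike to another of its own species, and the fish least like their own species were H. carbonarium fish 4 and H. macrostomum fish 6. All reads had been mapped to the transcriptome of H. macrostomum, so that less RNA and a diverged sequence cannot be told apart behind a low count in H. carbonarium. No called isogroup was without counts in H. macrostomum, while 8 were without counts in H. carbonarium. In bulk tissue, fewer cells of a type and less RNA per cell cannot be told apart either.

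**Figure D1:**
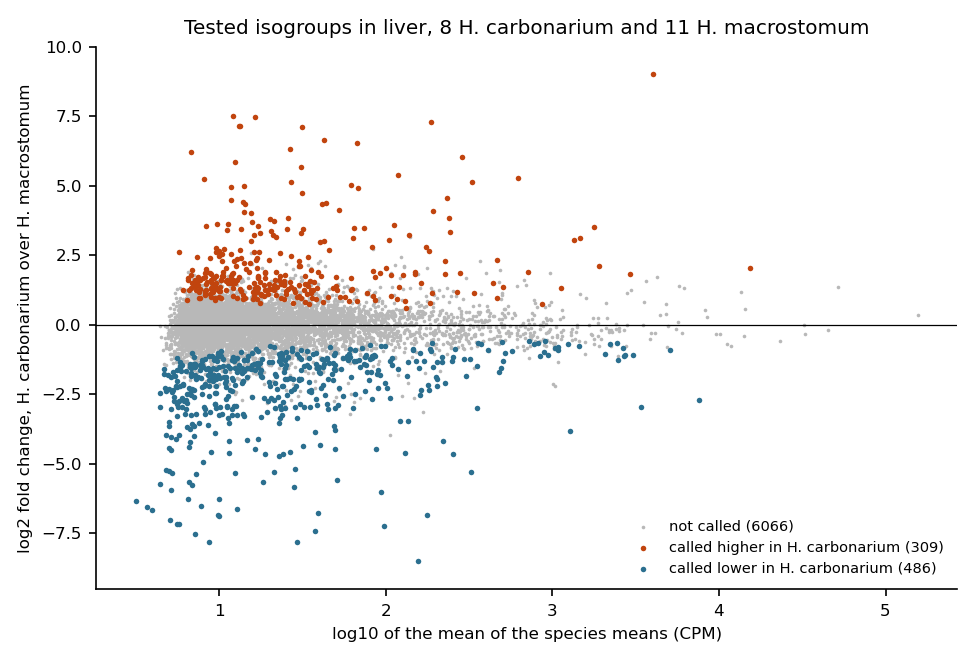
Log2 fold change of H. carbonarium over H. macrostomum (vertical axis) against the log10 of the mean level in CPM (horizontal axis) for the 6861 tested isogroups, 1 point each. The 309 isogroups called higher and the 486 called lower in H. carbonarium lie at all levels of abundance, and the median of all tested isogroups is at 0.01.

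A protein name was at hand for 1136 of the tested isogroups, of which 294 (25.9%) were called, 92 higher (8.10%) and 202 lower (17.8%) in H. carbonarium. Levels did not overlap in 10.4% of the named isogroups, 10.3% were also called, and 22.0% were called with each fish left out. Most names, 974, came from the annotation the study supplied for isogroups it had called itself, so that counts over named isogroups are no independent evidence of a direction. Of the 162 tested isogroups named only through the general annotation, 2 (1.23%) were called, and of the 974 named through the study's calls 292 (30.0%). The share called in a list thus also depends on where its names came from. The median log2 fold change was -0.27 over named isogroups and 0.01 over all tested ones. Protein lists drawn up from these names are described below against the 25.9% of named isogroups and 11.6% of all isogroups that were called. Each isogroup counts on its own in them, also where others bear the same name.

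**Figure D2:**
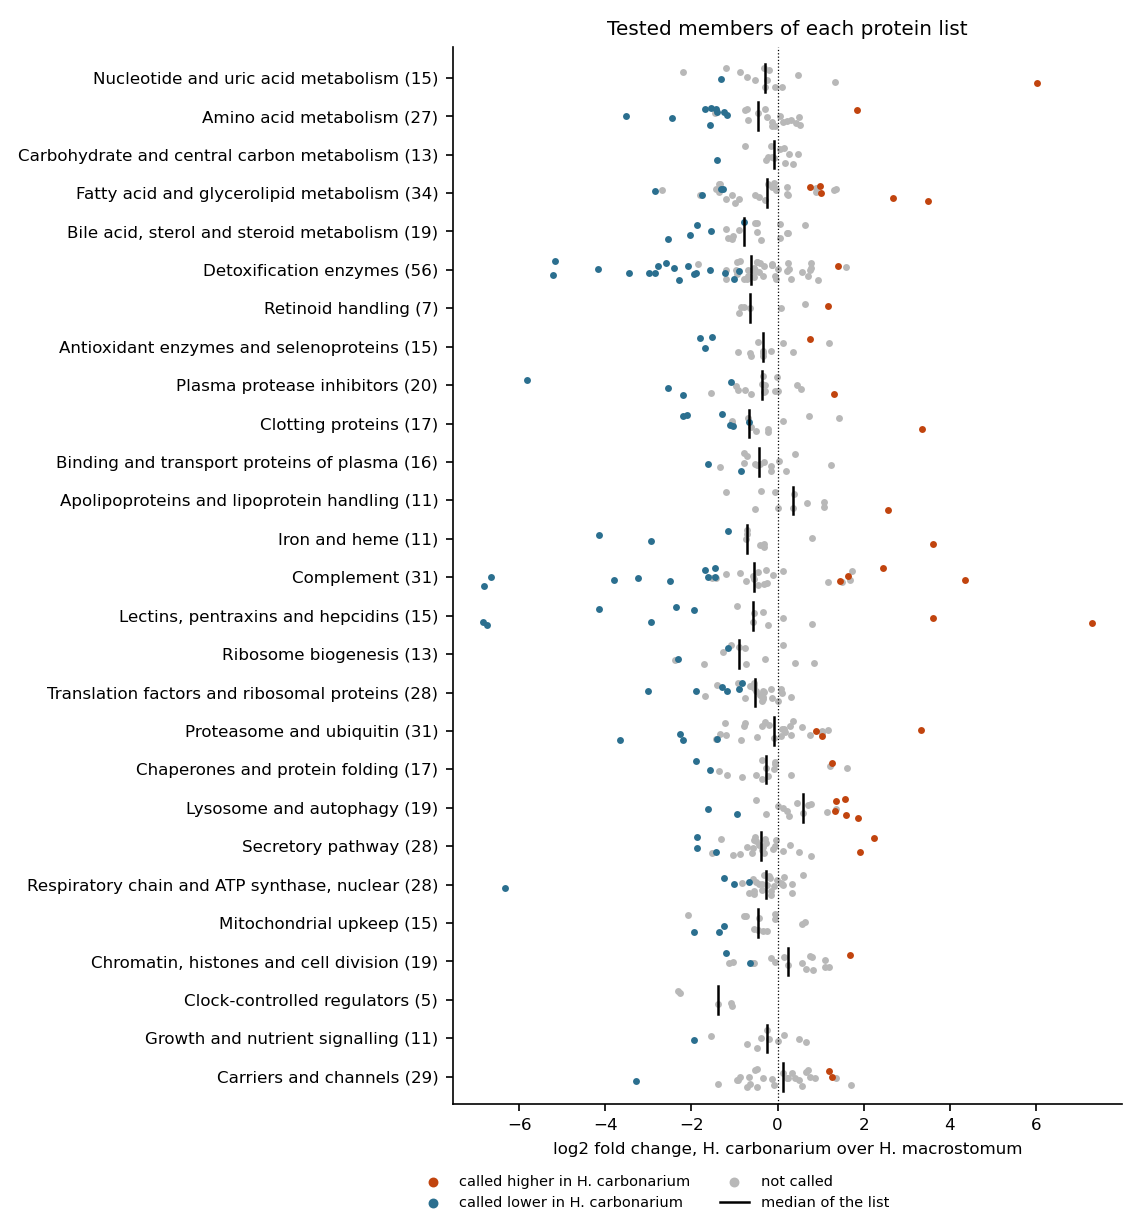
Log2 fold change of H. carbonarium over H. macrostomum (horizontal axis) of each tested member of 27 protein lists, with the number tested in brackets and the median as a black bar. The lists of detoxification, amino acid and complement proteins hold 17, 9 and 9 members called lower in H. carbonarium. In either direction 32.1%, 37.0% and 41.9% of these lists were called, beside 25.9% of named isogroups. The list of lysosomal proteins has its median at 0.59.

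Nucleotide metabolism held one of the largest rises. Beta-ureidopropionase (isogroup3987), which completes the breakdown of pyrimidines, was at 63.2, 156 and 2927 CPM in H. carbonarium (lowest, median and highest of 8 fish) and at 1.33, 6.98 and 28 CPM in H. macrostomum (of 11 fish). All H. carbonarium lay above all H. macrostomum, although the levels within H. carbonarium themselves spread widely (log2 fold change 6.04, SE 0.75, adjusted p = 3.48e-06). Without H. carbonarium fish 4 its log2 fold change was 4.74, a 26.8-fold difference in place of 65.6-fold. A second isogroup of this name (isogroup21) averaged 89.6 CPM in H. carbonarium and 107 CPM in H. macrostomum and was not called. Uridine-cytidine kinase 1 (isogroup617), which salvages pyrimidine nucleosides, was lower, at 2.01, 6.02 and 11.8 CPM in H. carbonarium against 8.14, 18.9 and 26.1 CPM in H. macrostomum (log2 fold change -1.30, SE 0.30, adjusted p = 0.0031). Of 15 tested isogroups of nucleotide and uric acid metabolism, 1 was higher, 1 lower and 13 were not called. The share called was 13.3%, beside 25.9% of named and 11.6% of all tested isogroups. Without H. carbonarium fish 2 or 8 or without H. macrostomum fish 10 the lower ones were 2, and without H. macrostomum fish 6 the higher ones were 2.

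Among enzymes of amino acid metabolism, more were called lower than higher in H. carbonarium. Of 27 tested isogroups, 9 were lower and 1 was higher (37.0% called, beside 25.9% of named isogroups), all of them also with each fish left out. Among the 294 calls over all named isogroups 202 were lower. The median log2 fold change of the list was -0.45, beside -0.27 over named isogroups. 3-hydroxyanthranilate 3,4-dioxygenase (isogroup415), on the path from tryptophan to NAD, was at 49.1, 66.1 and 157 CPM in H. carbonarium and 157, 236 and 308 CPM in H. macrostomum. The highest H. carbonarium lay just under the lowest H. macrostomum (log2 fold change -1.55, SE 0.23, adjusted p = 2.86e-05). Agmatinase (isogroup514), which releases urea from agmatine, was at 13.1, 25.6 and 30.8 CPM in H. carbonarium against 32.1, 59 and 97.7 CPM in H. macrostomum (log2 fold change -1.40, SE 0.24, adjusted p = 1.49e-04). Tryptophan hydroxylase (isogroup11881), which starts the synthesis of serotonin, was a rare transcript, with 15 counts over all H. carbonarium and 150 over all H. macrostomum (log2 fold change -2.45, SE 0.36, adjusted p = 2.99e-05). The other 6 lower members, chosen after their values were seen, were phenylalanine hydroxylase, an asparaginase homolog, proline dehydrogenase 2, propionyl-CoA carboxylase beta chain, urocanate hydratase and arginase. Their log2 fold changes ran from -3.51 to -1.17. The higher member was isoaspartyl peptidase/L-asparaginase (isogroup962), which splits asparagine. It was at 84.8, 131 and 222 CPM in H. carbonarium and 5.41, 47.1 and 62.3 CPM in H. macrostomum (log2 fold change 1.85, SE 0.32, adjusted p = 1.78e-04). Betaine homocysteine methyltransferase (isogroup6794), which rebuilds methionine from homocysteine and was among the 12 most abundant named isogroups, was at 6052, 8309 and 12378 CPM in H. carbonarium against 7475, 15181 and 27832 CPM in H. macrostomum. The species overlapped and it was not called (log2 fold change -0.77, SE 0.22, adjusted p = 0.0153), but without H. macrostomum fish 11 its adjusted p was 0.00679 in the same edgeR test, and with DESeq2 without a count filter it was 0.00429.

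Lipid handling moved in both directions. Acyl-coenzyme A thioesterase 4 (isogroup157), a peroxisomal enzyme that frees acids from coenzyme A, was 11.3-fold higher, at 60.3, 134 and 238 CPM in H. carbonarium against 2.49, 11.5 and 22.6 CPM in H. macrostomum. The lowest H. carbonarium exceeded the highest H. macrostomum (log2 fold change 3.50, SE 0.36, adjusted p = 2.45e-07). Fatty acid binding protein 1 (isogroup11683), which carries fatty acids through the hepatocyte, was at 158, 309 and 477 CPM in H. carbonarium and at 5.82, 32.1 and 169 CPM in H. macrostomum, overlapping only at the edge (log2 fold change 2.68, SE 0.52, adjusted p = 6.45e-04). Lower in H. carbonarium were hydroxyacyl-thioester dehydratase type 2 (isogroup20195), of mitochondrial fatty acid synthesis, and probable acyl-CoA dehydrogenase 6 (isogroup128), of a family that opens fatty acid oxidation. The dehydratase was at 3.64, 7.44 and 12.3 CPM in H. carbonarium against 17.2, 26.7 and 33.9 CPM in H. macrostomum (log2 fold change -1.74, SE 0.24, adjusted p = 1.11e-05). The dehydrogenase was at 6.04, 13 and 27.1 CPM in H. carbonarium against 21.2, 35.1 and 50.4 CPM in H. macrostomum (log2 fold change -1.27, SE 0.24, adjusted p = 4.81e-04). Of 34 tested isogroups of fatty acid and glycerolipid metabolism, 5 were higher and 4 lower (26.5% called, beside 25.9% of named isogroups). With each fish left out, 4 and 4 of them stayed called. The lower ones were 7 without H. carbonarium fish 7. The summed level of the list overlapped, at 2031 to 2658 CPM in H. carbonarium and 2082 to 3574 CPM in H. macrostomum.

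Bile acid and steroid enzymes were lower in H. carbonarium wherever they were called. Of 19 tested isogroups 5 (26.3%, beside 25.9% of named isogroups) were lower and none higher, also with each fish left out. Among the 294 calls over all named isogroups, 202 were lower. The median log2 fold change of the list was -0.77. The isogroup named 7-alpha-hydroxycholest-4-en-3-one 12-alpha-hydroxylase (isogroup483), the enzyme that sets the share of cholic acid in bile, was at 38.6, 80.5 and 183 CPM in H. carbonarium and 213, 303 and 459.6 CPM in H. macrostomum. The species did not overlap (log2 fold change -1.86, SE 0.26, adjusted p = 1.60e-05). Organic solute transporter subunit alpha (isogroup517), a subunit of a bile acid exporter, was at 153, 237 and 418 CPM in H. carbonarium against 422, 626 and 1695 CPM in H. macrostomum (log2 fold change -1.55, SE 0.28, adjusted p = 2.76e-04). Here too the species did not overlap. Steryl-sulfatase (isogroup852), which frees steroids from sulfate, was 5.80-fold lower in H. carbonarium, with -2.54 as its log2 fold change (SE 0.36, adjusted p = 1.86e-05). Estradiol 17-beta-dehydrogenase 2 (isogroup1868), which inactivates estradiol, was 4.09-fold lower (log2 fold change -2.03, SE 0.32, adjusted p = 8.14e-05). The summed level of all 37 isogroups of the list was 986 to 1367 CPM in H. carbonarium and 1659 to 3373 CPM in H. macrostomum, without overlap. Much of that gap lay in isogroup517 (mean 250 CPM in H. carbonarium and 731 CPM in H. macrostomum) and isogroup483 (85.9 and 314 CPM). The separation is thus not one of the whole list, and a sum without them was not tested. Of carbohydrate and central carbon enzymes 1 of 13 was called, a glycogenin 2 that was lower in H. carbonarium and lost its call without H. carbonarium fish 6 or 8. That list had a median log2 fold change of -0.09.

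**Figure D3:**
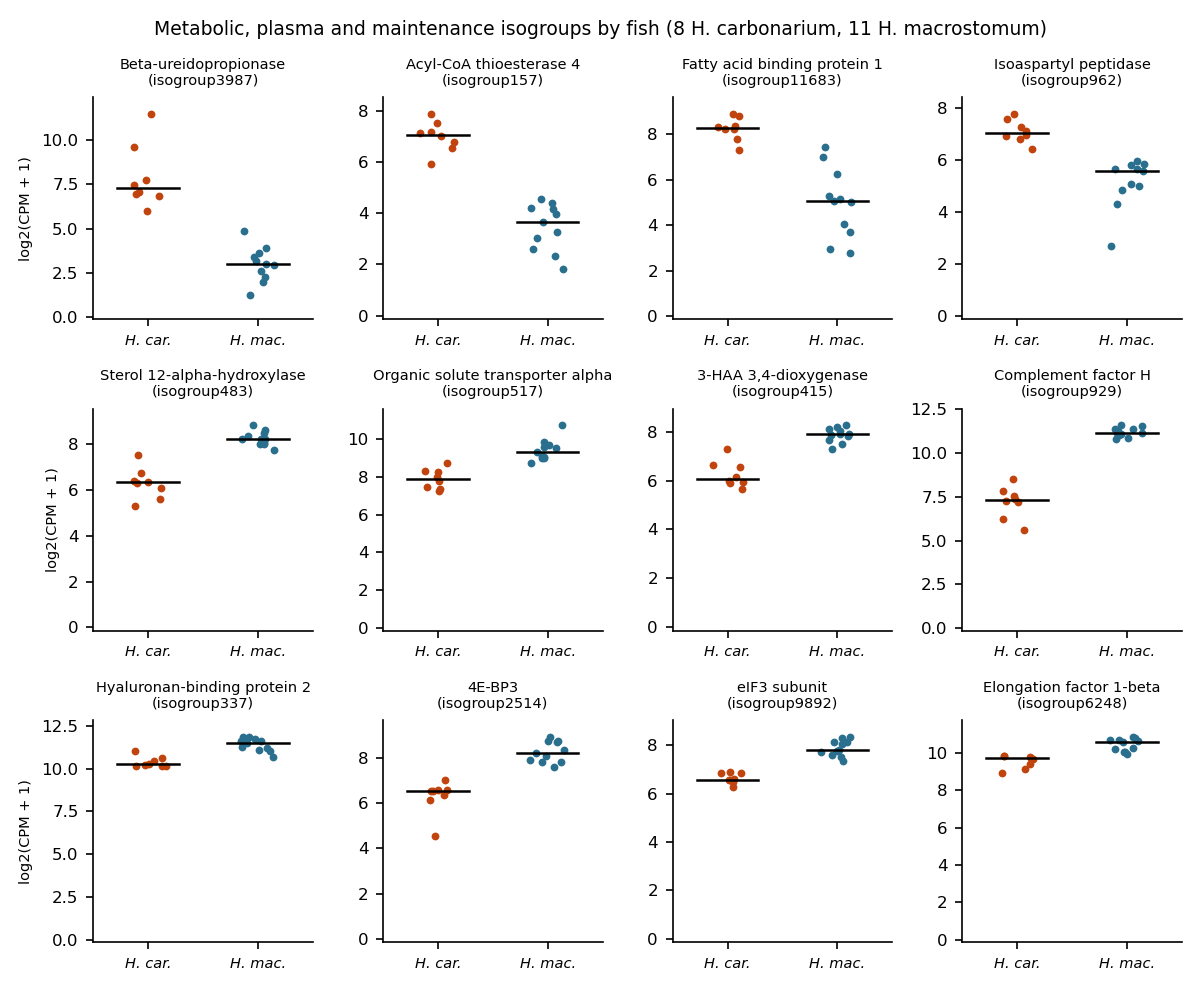
Levels as log2(CPM + 1) of 12 metabolic, plasma and maintenance isogroups, 1 point per fish, with H. carbonarium (8 fish) left of H. macrostomum (11 fish) and a bar at the median. The first 4 panels are higher in H. carbonarium, beta-ureidopropionase by 65.6-fold (26.8-fold without H. carbonarium fish 4), and the other 8 lower, complement factor H by 13.9-fold.

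Detoxification enzymes were the largest metabolic list and were lower in H. carbonarium in nearly every call. Of 56 tested, 17 were lower and 1 was higher (32.1% called, beside 25.9% of named isogroups). With each fish left out 16 of the lower ones were called. Among the 294 calls over all named isogroups 202 were lower. The higher one, UDP-glucuronosyltransferase 2A1, was lost without any 1 of 10 fish, H. carbonarium fish 1, 2, 3, 7 or 8 or H. macrostomum fish 3, 4, 6, 7 or 9, and without H. macrostomum fish 10 the higher ones were 2. Among the lower ones were 10 cytochrome P450 isogroups, heme enzymes that oxidize foreign and fatty compounds. Cytochrome P450 2K1 (isogroup18515) was at 3.22, 10.6 and 18 CPM in H. carbonarium and 38.4, 73.7 and 205 CPM in H. macrostomum, without overlap (log2 fold change -2.99, SE 0.38, adjusted p = 4.97e-06). Cytochrome P450 2F5 (isogroup793) had 13 counts over all H. carbonarium and 394 over all H. macrostomum (log2 fold change -4.17, SE 0.56, adjusted p = 1.12e-05). One of the isogroups named cytochrome P450 2J2 (isogroup47871) had 2 counts over H. carbonarium and 192 over H. macrostomum, a ratio of pooled levels of 56.3 (95% counting interval 15.4 to 468). Flavin reductase (isogroup1192), which uses NADPH to reduce flavins and biliverdin, was 7.23-fold lower in H. carbonarium, with no overlap (log2 fold change -2.85, SE 0.35, adjusted p = 3.48e-06). The summed level of the list overlapped between the species, 3879 to 5989 CPM in H. carbonarium against 4952 to 8172 CPM in H. macrostomum.

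Retinol dehydrogenase 16 (isogroup2577), which oxidizes vitamin A alcohol, was higher, at 80.0, 97 and 172 CPM in H. carbonarium against 34, 45.9 and 71.8 CPM in H. macrostomum, with no overlap (log2 fold change 1.16, SE 0.19, adjusted p = 8.38e-05). It was the one call among 7 isogroups of retinoid handling (14.3%, beside 25.9% of named isogroups). The median log2 fold change of that list was -0.65, with 3 members above 0 and 4 below. For retinol dehydrogenase 16 the adjusted p was 0.21 in the edgeR fit over all 36 fish and 0.0136 without a count filter. Without H. macrostomum fish 6, another member, RDH2 (isogroup562), was called lower. Of 15 antioxidant enzymes and selenoproteins 4 were called (26.7%, beside 25.9% of named isogroups). Among these, 3 were lower in H. carbonarium, all with each fish left out. They were the redox-regulatory protein FAM213A (isogroup1942, 3.48-fold), methionine-R-sulfoxide reductase B1-A (isogroup2923, 3.24-fold), which mends oxidized methionine, and a glutathione peroxidase (isogroup1565, 2.86-fold), which removes peroxides. The glutathione peroxidase was at 9.72, 21.1 and 31.4 CPM in H. carbonarium and 41.9, 53.1 and 103 CPM in H. macrostomum (log2 fold change -1.52, SE 0.24, adjusted p = 7.62e-05). One isogroup, peroxiredoxin-6, was called higher with all fish but lost its call without any 1 of 14 fish, 5 H. carbonarium and 9 H. macrostomum. Selenoprotein P (isogroup339), the carrier of selenium in plasma, was at 3399, 5503 and 7099.6 CPM in H. carbonarium against 3376, 6021 and 7197 CPM in H. macrostomum and was not called (log2 fold change -0.14, SE 0.18, adjusted p = 0.632).

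Of the 12 most abundant named isogroups, most of them plasma proteins, 1 was called. Apolipoprotein A-I (isogroup2202), the main protein of high-density lipoprotein, was at 23841, 32129 and 41919.7 CPM in H. carbonarium and 22040.5, 31524 and 43889 CPM in H. macrostomum (log2 fold change 0.02, SE 0.15, adjusted p = 0.958). Alpha-1-antitrypsin (isogroup5304), the main inhibitor of neutrophil elastase, was at 10735, 29778 and 41343 CPM in H. carbonarium against 18296, 41209.7 and 48971 CPM in H. macrostomum (log2 fold change -0.34, SE 0.24, adjusted p = 0.339). In both the species overlapped over most of their range. Also among the 12 most abundant named isogroups and not called were a putative TBT binding protein, a lipocalin named for binding tributyltin (isogroup252, log2 fold change -0.41, SE 0.26, adjusted p = 0.293), and the heme scavenger hemopexin (isogroup1477, log2 fold change -0.32, SE 0.20, adjusted p = 0.27). Further ones were alpha-2-HS-glycoprotein, which keeps calcium phosphate soluble (isogroup1051, log2 fold change -0.28, SE 0.28, adjusted p = 0.514), and a complement component C3 (isogroup6800, log2 fold change -0.31, SE 0.16, adjusted p = 0.18). Apolipoprotein C-I (isogroup46198), which regulates lipoprotein turnover, had a log2 fold change of 0.35 (SE 0.29) and an RNAase (isogroup2138) one of 0.57 (SE 0.29), and neither was called (edgeR, adjusted p = 0.427 and 0.18). The exception was prostaglandin D synthase (isogroup3764), an enzyme and lipocalin carrier, with 2169.6, 3469 and 5077 CPM in H. carbonarium and 5316, 6567 and 7977 CPM in H. macrostomum. No H. carbonarium reached the lowest H. macrostomum (log2 fold change -0.88, SE 0.17, adjusted p = 5.92e-04).

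Other plasma proteins gave calls in both directions. Of 20 protease inhibitors 4 were lower and 1 higher in H. carbonarium (25% called, beside 25.9% of named isogroups), all with each fish left out. An alpha2-macroglobulin (isogroup2784), a large cage that traps proteases, had 10 counts over all H. carbonarium and 1012 over all H. macrostomum (log2 fold change -5.81, SE 0.72, adjusted p = 3.57e-06). Its log2 fold change was -6.45 without H. carbonarium fish 6. Antileukoproteinase (isogroup5328), an inhibitor of leukocyte elastase, was 5.82-fold lower (log2 fold change -2.54, SE 0.44, adjusted p = 1.97e-04). Clotting proteins gave 6 lower and 1 higher of 17 (41.2% called, beside 25.9% of named isogroups), with 4 and 1 called with each fish left out. Hyaluronan-binding protein 2 (isogroup337), a protease that activates factor VII, was at 1139.8, 1215 and 2091 CPM in H. carbonarium and 1646, 2846 and 3749 CPM in H. macrostomum, with some overlap (log2 fold change -1.03, SE 0.19, adjusted p = 3.90e-04). A kininogen 1 (isogroup18202), the precursor of bradykinin, was 4.59-fold lower with no overlap (log2 fold change -2.20, SE 0.33, adjusted p = 4.68e-05). The summed clotting proteins were at 4495 to 7113 CPM in H. carbonarium and 6538 to 10769.9 CPM in H. macrostomum. Without any 1 of 5 fish, H. carbonarium fish 8 or H. macrostomum fish 1, 2, 6 or 11, the higher clotting proteins were 2. The added one was a second isogroup named hyaluronan-binding protein 2 (isogroup338), at an adjusted p of 0.010006 in edgeR's test with all fish.

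Of 16 binding proteins of plasma, 2 (12.5%, beside 25.9% of named and 11.6% of all tested isogroups) were lower. They were tributyltin binding protein type 1 (isogroup14931, log2 fold change -1.60, SE 0.36, adjusted p = 0.0025) and transcobalamin-2, the carrier of vitamin B12. The call of transcobalamin-2 was lost without H. carbonarium fish 1, 3, 6 or 7 or without H. macrostomum fish 1 or 2. Of 11 apolipoproteins and lipoprotein proteins 1 was called, apolipoprotein AIV (isogroup74830), which helps to secrete fat in lipoproteins. It was at 3.64, 14.6 and 38.3 CPM in H. carbonarium and 0.664, 1.63 and 15.7 CPM in H. macrostomum, higher with overlap (log2 fold change 2.56, SE 0.54, adjusted p = 0.00155). The log2 fold change was 3.40 without H. macrostomum fish 1, the highest of its species. Apolipoprotein B-100, the core protein of very low density lipoprotein, was also called higher without H. carbonarium fish 2. With H. carbonarium fish 4 or H. macrostomum fish 5 or 7 left out, cholesteryl ester transfer protein, which swaps lipids between lipoproteins, was called lower.

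Complement proteins included some of the largest falls. Complement factor H (isogroup929), which protects host cells from complement, was at 47.3, 158 and 371 CPM in H. carbonarium and 1750.0, 2221 and 3069 CPM in H. macrostomum. The gap between the highest H. carbonarium and the lowest H. macrostomum was wider than the range among the H. carbonarium fish (log2 fold change -3.80, SE 0.32, adjusted p = 1.23e-08). A second factor H (isogroup40607) had no count in H. carbonarium and 149 in H. macrostomum. Taking 3 counts over the group as the floor, it was at least 29.1-fold lower. Of 31 complement isogroups 9 were lower and 4 higher in H. carbonarium (41.9% called, beside 25.9% of named isogroups). With each fish left out 7 and 3 of them stayed called. The summed level of all 63 was 9899.7 to 18665 CPM in H. carbonarium and 14738 to 25955 CPM in H. macrostomum.

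Soluble lectins and hepcidins included some of the largest differences in both directions. Serum lectin isoform 3 (isogroup2344) was at 0, 2.33 and 8.0 CPM in H. carbonarium and 2.71, 354 and 688 CPM in H. macrostomum, and lactose-binding lectin l-2 (isogroup1539) at 0, 0.694 and 2.01 CPM in H. carbonarium against 7.03, 65.4 and 221 CPM in H. macrostomum. Both bind sugars on microbes, and both were lower in H. carbonarium (edgeR, adjusted p = 5.31e-07 and 3.44e-07), the serum lectin with H. macrostomum fish 11 inside the range of H. carbonarium. Intelectin-1a (isogroup48155), also a lectin, was at 144, 339 and 602 CPM in H. carbonarium and 0, 2.08 and 5.56 CPM in H. macrostomum, the smallest p of all named isogroups (log2 fold change 7.29, SE 0.40, adjusted p = 2.39e-11). Of 15 lectins, pentraxins and hepcidins 6 were lower and 2 higher (53.3% called, beside 25.9% of named isogroups), all with each fish left out. Iron proteins other than hepcidin gave 1 call, the mitochondrial iron-sulfur cluster scaffold ISCU (isogroup1489), lower in H. carbonarium, with -1.15 as its log2 fold change (SE 0.24, adjusted p = 0.00112).

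For 10 protein names, 1 or more isogroups were called in each direction, so that the total under the name was also tested and is given as mean ± SD (n = 8 H. carbonarium and 11 H. macrostomum). Hepcidins, the hormones that hold back iron release into plasma, illustrate this. Isogroup12503 was at 0, 18.1 and 70.8 CPM in H. carbonarium and 215, 404 and 832 CPM in H. macrostomum, and isogroup5033 at 259.9, 649 and 1892 CPM in H. carbonarium against 425, 5292 and 13676 CPM in H. macrostomum. In contrast, isogroup13090 was at 6.06, 235 and 342 CPM in H. carbonarium and 5.35, 15.1 and 43.6 CPM in H. macrostomum. The sum over 4 hepcidin isogroups was lower in H. carbonarium, 2011 ± 869 CPM in H. carbonarium and 7042 ± 3694 CPM in H. macrostomum (log2 fold change -1.81, SE 0.35, adjusted p = 7.27e-04). Likewise, the sum over 5 isogroups named complement C3, the central protein of the cascade, was lower, 418 ± 176 CPM in H. carbonarium and 867 ± 214 CPM in H. macrostomum (log2 fold change -1.05, SE 0.23, adjusted p = 0.00236). Its called members were isogroup750 (log2 fold change -1.68, SE 0.21, adjusted p = 5.69e-06) and isogroup5539 (log2 fold change 1.64, SE 0.34, adjusted p = 0.00141). Complement component C3 is a second name of this protein, and most of its RNA was counted under that name. There the sum averaged 9410 CPM in H. carbonarium and 11950 CPM in H. macrostomum and was not called. A sum over both names was not tested. The sum over 2 proteasome subunit beta type isogroups lay just outside the threshold, 113 ± 19.9 CPM in H. carbonarium and 72.7 ± 14.7 CPM in H. macrostomum (log2 fold change 0.63, SE 0.17, adjusted p = 0.0101), with isogroup174 higher (log2 fold change 0.88, SE 0.16, adjusted p = 4.45e-04, and 0.103 without a count filter) and isogroup2595 lower (log2 fold change -3.66, SE 0.52, adjusted p = 2.30e-05). The log2 fold change of isogroup2595 was -4.31 without H. carbonarium fish 3.

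For the other names the sum was not called. Alpha-2-macroglobulin had isogroup8563 higher (log2 fold change 1.32, SE 0.25, adjusted p = 4.50e-04) and isogroup8233 lower (log2 fold change -2.18, SE 0.39, adjusted p = 3.19e-04). Its sum was 1697 ± 632 CPM in H. carbonarium and 1019 ± 267 CPM in H. macrostomum (log2 fold change 0.74, SE 0.22, adjusted p = 0.0221). That sum leaves out the lower isogroup2784 (log2 fold change -5.81), which bears the spelling alpha2-macroglobulin. Coagulation factor X, which forms thrombin, had isogroup22201 at 47.7, 487 and 771 CPM in H. carbonarium and 11.6, 27.7 and 105 CPM in H. macrostomum (log2 fold change 3.34, SE 0.51, adjusted p = 5.34e-05). Its other called isogroup, isogroup1507, was at 354, 542 and 708 CPM in H. carbonarium against 711, 1186 and 1455 CPM in H. macrostomum (log2 fold change -1.10, SE 0.19, adjusted p = 1.94e-04), and the sum was 1671 ± 305 CPM in H. carbonarium and 2209.6 ± 460.5 CPM in H. macrostomum (log2 fold change -0.40, SE 0.16, adjusted p = 0.0898). Intelectin-1a had the lower isogroup2097 (log2 fold change -2.35, SE 0.42, adjusted p = 2.67e-04) beside the higher isogroup48155, and the sum was 431 ± 121 CPM in H. carbonarium and 306 ± 136 CPM in H. macrostomum (log2 fold change 0.50, SE 0.25, adjusted p = 0.174). C1q proteins, which start the classical cascade, had isogroup33866 higher (log2 fold change 4.35, SE 0.56, adjusted p = 5.50e-06) and isogroup33207 lower, with 1 count in H. carbonarium and 335 in H. macrostomum (ratio of pooled levels 197, 95% counting interval 35.0 to 7786). Their sum was 78.7 ± 56 CPM in H. carbonarium and 23.5 ± 22.8 CPM in H. macrostomum (log2 fold change 1.74, SE 0.60, adjusted p = 0.0419). Lymphocyte antigen 6D, a small membrane-anchored protein, had isogroup1333 higher (log2 fold change 4.11, SE 0.49, adjusted p = 1.84e-06) and isogroup16578 lower (log2 fold change -2.99, SE 0.33, adjusted p = 6.78e-07), with a sum of 473 ± 279 CPM in H. carbonarium and 668 ± 288 CPM in H. macrostomum (log2 fold change -0.49, SE 0.32, adjusted p = 0.297). Merlin, a cytoskeletal tumor suppressor, had isogroup41644 higher (log2 fold change 3.46, SE 0.67, adjusted p = 6.16e-04) and isogroup9656 lower (log2 fold change -4.36, SE 0.62, adjusted p = 2.13e-05), with a sum of 97.3 ± 98.1 CPM in H. carbonarium and 98.9 ± 30.0 CPM in H. macrostomum (log2 fold change -0.04, SE 0.43, adjusted p = 0.964). Without H. carbonarium fish 1 the log2 fold change of isogroup41644 was 2.86. For complement component C3 the sum was 9410.1 ± 1816 CPM in H. carbonarium and 11950.1 ± 2142 CPM in H. macrostomum (log2 fold change -0.34, SE 0.16, adjusted p = 0.13), over isogroup6592 (log2 fold change -1.46, SE 0.32, adjusted p = 0.00185), isogroup7824 (log2 fold change -1.45, SE 0.34, adjusted p = 0.00398), isogroup5994 (log2 fold change 1.45, SE 0.38, adjusted p = 0.00896) and 4 that were not called. The call of isogroup7824 was lost without H. carbonarium fish 7, and that of isogroup5994 without any 1 of 15 fish. Isogroups of one name can share reads, and whether they are different genes of a family, copies of a gene or versions of one was not tested. Names such as proteasome subunit beta type and C1q protein can cover a family, so a sum under them need not be that of a single protein.

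**Figure D4:**
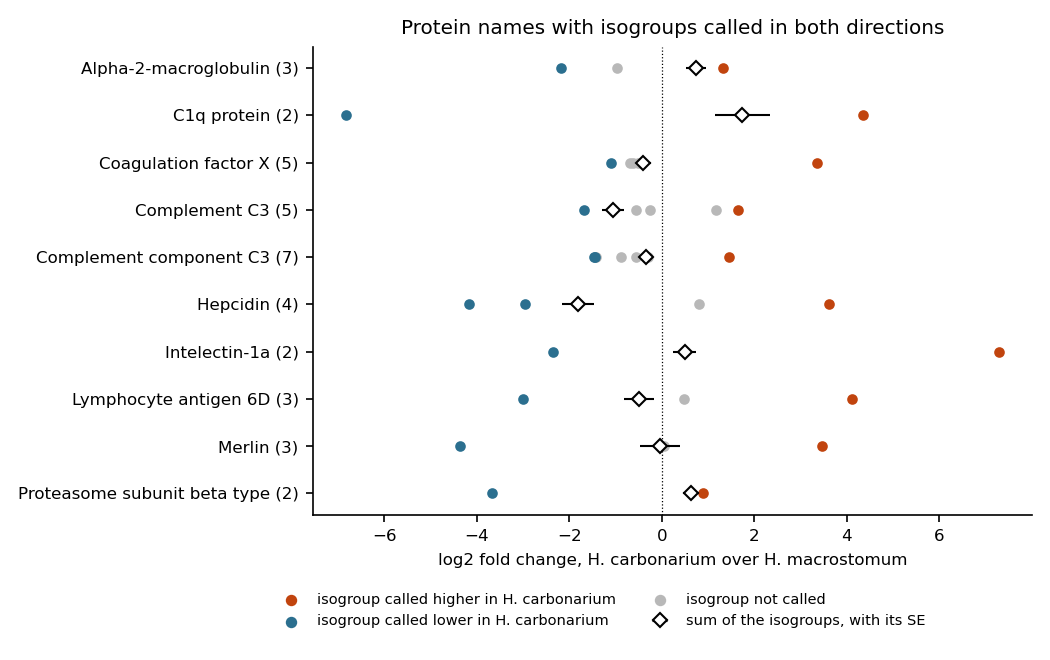
Log2 fold change of H. carbonarium over H. macrostomum (horizontal axis) of each isogroup under 10 protein names with calls in both directions, and of their sum with its standard error as a diamond. Numbers in brackets are tested isogroups. The sums of hepcidin and complement C3 lie left of 0 and were called, and the other 8 were not. Complement component C3, a second name of the same protein, is among those not called.

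Of 28 tested translation factors and ribosomal proteins, 6 (21.4%, beside 25.9% of named isogroups) were lower in H. carbonarium and none higher. With each fish left out 5 of them stayed called. Among the 294 calls over all named isogroups 202 were lower, and 19 of the 28 names came only from the study's own calls. The median log2 fold change was -0.52, beside -0.27 over named isogroups. Elongation factor 1-beta (isogroup6248), which recharges the factor that brings tRNA to the ribosome, was at 482, 829.9 and 915 CPM in H. carbonarium and 961, 1538 and 1864 CPM in H. macrostomum. It did not overlap between the species (log2 fold change -0.89, SE 0.19, adjusted p = 0.0013). Eukaryotic translation initiation factor 3 subunit L (isogroup9892) was at 76.9, 94.5 and 117 CPM in H. carbonarium against 162, 221 and 329 CPM in H. macrostomum (log2 fold change -1.28, SE 0.18, adjusted p = 1.90e-05). Initiation factor 2 subunit 1 (isogroup3602), whose phosphorylation slows translation, was 2.27-fold lower (log2 fold change -1.18, SE 0.25, adjusted p = 0.0014). A polyA-binding protein (isogroup15709), which holds messenger RNA tails, was 8.0-fold lower (log2 fold change -3.0, SE 0.31, adjusted p = 2.91e-07). The summed level of the list was 5470.2 to 8745 CPM in H. carbonarium and 7069.9 to 12412 CPM in H. macrostomum.

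Of 13 ribosome biogenesis proteins 11 were not called and 2 were lower, NVL (isogroup6161), an ATPase of large subunit assembly (log2 fold change -2.31, SE 0.37, adjusted p = 7.59e-05), and RLP24 (isogroup5483), which joins the same particle (log2 fold change -1.14, SE 0.26, adjusted p = 0.00258). The share called in the list of ribosome biogenesis was 15.4%, beside 25.9% of named and 11.6% of all tested isogroups. That list had a median log2 fold change of -0.91, and without H. macrostomum fish 6 another member was called higher. The initiation factor 4E binding protein (isogroup2514), a brake on translation under nutrient signalling, was at 22.3, 90.9 and 128 CPM in H. carbonarium and 190.0, 295 and 488 CPM in H. macrostomum (log2 fold change -1.93, SE 0.28, adjusted p = 2.24e-05). It was the one call among 11 isogroups of growth and nutrient signalling (9.09%, beside 25.9% of named isogroups).

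Lysosomal proteins had the highest median log2 fold change of the maintenance lists, 0.59. Of 19 tested, 5 were higher and 2 lower in H. carbonarium (36.8% called, beside 25.9% of named isogroups), 4 and 2 with each fish left out. Without H. macrostomum fish 6 the higher ones were 8. Cathepsin H (isogroup38957), a lysosomal protease, was at 8.85, 35.1 and 42.8 CPM in H. carbonarium and 2.49, 8.35 and 13.1 CPM in H. macrostomum (log2 fold change 1.86, SE 0.33, adjusted p = 2.31e-04). Proactivator polypeptide (isogroup1756), the precursor of the saposins that help to break down sphingolipids, was 3.02-fold higher (log2 fold change 1.59, SE 0.31, adjusted p = 6.54e-04). Gamma-interferon-inducible lysosomal thiol reductase (isogroup3130), which opens disulfides of engulfed proteins, was 2.58-fold higher (log2 fold change 1.37, SE 0.25, adjusted p = 4.27e-04). In each of these 1 or 2 H. carbonarium lay within the range of H. macrostomum. Alpha-mannosidase (isogroup2603), which trims sugars from glycoproteins, was 1.93-fold lower (log2 fold change -0.95, SE 0.19, adjusted p = 9.79e-04), and its adjusted p was 0.0145 without a count filter.

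Protein turnover and secretion gave calls in both directions. Of 31 proteasome and ubiquitin isogroups 3 were higher and 4 lower. Shares called were 22.6% here, 17.6% of chaperones and 17.9% of secretory proteins, beside 25.9% of named isogroups. Polyubiquitin (isogroup27811), the tag for degradation, was at 2.42, 25 and 70.2 CPM in H. carbonarium and 0, 3.44 and 5.97 CPM in H. macrostomum (log2 fold change 3.32, SE 0.47, adjusted p = 2.24e-05). A proteasome subunit alpha type (isogroup3554) was 4.57-fold lower (log2 fold change -2.19, SE 0.35, adjusted p = 7.70e-05). Chaperones gave 2 lower and 1 higher of 17, the lower ones reticulocalbin-3 (isogroup1186), a calcium-binding protein of the endoplasmic reticulum (log2 fold change -1.90, SE 0.33, adjusted p = 2.15e-04), and the co-chaperone DnaJ C22 (isogroup1139, log2 fold change -1.58, SE 0.25, adjusted p = 8.33e-05). Without H. carbonarium fish 6 the calls of this list were 5, 3 of them higher. Without H. carbonarium fish 7 or H. macrostomum fish 2 or 10 the higher ones were 2, and without H. carbonarium fish 3 none was. Secretory proteins gave 3 lower and 2 higher of 28. The lower ones were the cargo receptor TMED2 (isogroup2038, log2 fold change -1.87, SE 0.32, adjusted p = 1.78e-04), mannose-P-dolichol utilization defect 1 (isogroup2698, log2 fold change -1.87, SE 0.40, adjusted p = 0.00153), needed for glycosylation, and the Golgi tether p115 (isogroup1275, log2 fold change -1.44, SE 0.29, adjusted p = 9.10e-04). The adaptor subunit AP-2 mu-A (isogroup3695), of clathrin-coated pits, was higher (log2 fold change 1.91, SE 0.40, adjusted p = 0.00135). The second higher one, transmembrane emp24 domain-containing protein 11, lost its call without any 1 of 8 fish, 3 H. carbonarium and 5 H. macrostomum.

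Nuclear-encoded mitochondrial proteins gave few calls. Of 28 respiratory chain and ATP synthase isogroups 4 (14.3%, beside 25.9% of named isogroups) were lower in H. carbonarium and none higher. With each fish left out 3 of them stayed called. Among the 294 calls over all named isogroups 202 were lower. The median log2 fold change was -0.28, near that of all named isogroups. A cytochrome c oxidase subunit VIIa-related protein (isogroup10057) had no count in H. carbonarium and 121 in H. macrostomum, at least 23.7-fold lower against the same floor. Another isogroup with a like name (isogroup8475) was at 24.2, 30.0 and 45.2 CPM in H. carbonarium and 42.4, 66.4 and 97.5 CPM in H. macrostomum (log2 fold change -1.01, SE 0.20, adjusted p = 9.48e-04). Succinate dehydrogenase assembly factor 4 (isogroup7420) was 2.38-fold lower (log2 fold change -1.25, SE 0.24, adjusted p = 5.75e-04). Among 15 isogroups of mitochondrial upkeep, TIM17 (isogroup1365), of the import channel of the inner membrane, was at 7.24, 10.1 and 13.3 CPM in H. carbonarium against 15.2, 38.7 and 90.0 CPM in H. macrostomum, with no overlap (log2 fold change -1.94, SE 0.31, adjusted p = 7.90e-05). Altogether 3 of that list (20%) were lower and none higher, 2 with each fish left out.

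Calls on chromatin proteins (15.8%) and on carriers and channels (10.3%) came at shares below the 25.9% of named isogroups. Of all tested isogroups 11.6% were called, and of those named through the study's own calls 30.0%. That source alone named 16 of the 19 chromatin isogroups and 28 of the 29 carriers and channels. Lamin-B receptor (isogroup2793), which anchors chromatin to the nuclear envelope, was higher, at 7.27, 13.9 and 19.5 CPM in H. carbonarium against 2.49, 4.02 and 8.30 CPM in H. macrostomum (log2 fold change 1.69, SE 0.24, adjusted p = 1.86e-05). Of 19 chromatin and cell division isogroups it was the one call kept with each fish left out, and 2 others were called lower with all fish. It was the one call of the list without H. carbonarium fish 1, 5 or 7. One of the lower ones, cyclin-G1, was lost without any 1 of 17 fish. The higher ones were 2 without H. macrostomum fish 6 and 3 without its fish 10. The summed level of all 68 chromatin isogroups was lower in H. carbonarium without overlap, at 794 to 1184 CPM against 1218.5 to 1615 CPM in H. macrostomum. The median log2 fold change of the tested ones was 0.25. None of 5 clock-controlled regulators was called, although their log2 fold changes all lay between -2.31 and -1.06. Their summed level spread over 28.5 to 483 CPM within H. carbonarium and 33.1 to 723 CPM within H. macrostomum. Of 29 carriers and channels, a phosphate transporter (isogroup12400) was lower (log2 fold change -3.29, SE 0.56, adjusted p = 1.89e-04, with a log2 fold change of -3.90 without H. carbonarium fish 8) and the chloride anion exchanger (isogroup3318), which trades chloride for bicarbonate, higher (log2 fold change 1.26, SE 0.27, adjusted p = 0.00192). A choline transporter was the third call, lost without H. carbonarium fish 4 or 6. Without H. macrostomum fish 6 the calls of this list were 7, and without H. carbonarium fish 4 or 5 the lower ones were 2. The adjusted p of the chloride anion exchanger was 0.0292 without a count filter.

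Outside the lists, the largest named rises with no overlap were in RAB31 (isogroup9790), which steers vesicles, with 11.1, 35 and 179.9 CPM in H. carbonarium and 0, 0.983 and 2.91 CPM in H. macrostomum (log2 fold change 5.70, SE 0.59, adjusted p = 2.76e-07). A metalloendopeptidase (isogroup27523, 27-fold), integral membrane protein 2B (isogroup5189, 21.5-fold), lymphocyte antigen 6D (isogroup1333, 17.2-fold), interleukin-8 (isogroup9888, 11.9-fold), which draws neutrophils, and a tRNA methyltransferase 1 homolog (isogroup4445, 10.9-fold) followed. Their adjusted p-values in edgeR's test were 8.35e-07, 3.51e-08, 1.84e-06, 8.12e-08 and 5.35e-05. The largest falls were in proteins of varied roles, several of them near the detection limit. Transmembrane protein 60 (isogroup16603) had no count in H. carbonarium and 203 in H. macrostomum, at least 39.7-fold lower. Zinc finger protein 167 (isogroup24733) had 2 counts over H. carbonarium and 242 over H. macrostomum, a ratio of pooled levels of 71.0 (95% counting interval 19.4 to 589). The like ratio for seizure related 6 homolog like (isogroup9440), with 2 counts over H. carbonarium and 177 over H. macrostomum, was 51.9 (14.2 to 432). Histamine N-methyltransferase (isogroup492), which inactivates histamine, was better counted, at 0, 1.57 and 4.86 CPM in H. carbonarium and 7.70, 51.1 and 107 CPM in H. macrostomum (log2 fold change -4.56, SE 0.58, adjusted p = 5.06e-06). Reticulon (isogroup6499), which shapes the endoplasmic reticulum, was at 0, 2.05 and 4.24 CPM in H. carbonarium against 8.14, 28.5 and 659 CPM in H. macrostomum, with H. macrostomum fish 6 far above the rest (log2 fold change -5.56, SE 0.96, adjusted p = 1.97e-04). Without that fish the log2 fold change of reticulon was -4.36. Transposable elements gave 3 higher and 3 lower of 11 (54.5% called, beside 25.9% of named isogroups). They ranged from a reverse transcriptase (isogroup63, log2 fold change -3.35, SE 0.30, adjusted p = 3.13e-08) to a TC1 transposase (isogroup9835, log2 fold change 2.77, SE 0.49, adjusted p = 2.36e-04), with a transposase (isogroup1810, log2 fold change -2.20, SE 0.37, adjusted p = 1.65e-04) and a non-LTR retrotransposon (isogroup3604, log2 fold change 1.69, SE 0.25, adjusted p = 3.35e-05) between.

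Some markers of other cell types differed in level between the species, and their part in the results above was not tested. Digestive enzymes of the exocrine pancreas, which in many bony fishes lies within or around the liver, were higher in H. carbonarium. Trypsinogen H2_3a4 (isogroup62223) was at 2924, 6431 and 21714 CPM in H. carbonarium and 2.87, 11.7 and 72.7 CPM in H. macrostomum, the largest fold change of any tested isogroup (log2 fold change 9.02, SE 0.63, adjusted p = 6.02e-10). It was 9.62 without H. macrostomum fish 2. Chymotrypsin B (isogroup23329) was at 1786, 2586 and 7490.5 CPM in H. carbonarium against 36.6, 218 and 703 CPM in H. macrostomum (log2 fold change 3.53, SE 0.47, adjusted p = 1.01e-05). Neither overlapped between the species. Chymotrypsin elastase family member 2A (isogroup4491, log2 fold change 1.84, SE 0.40, adjusted p = 0.00187) and alpha-amylase (isogroup41616, log2 fold change 2.33, SE 0.50, adjusted p = 0.00175) were higher with overlap. Of 7 tested pancreas isogroups 4 were higher and none lower (57.1% called, beside 25.9% of named isogroups), also with each fish left out. The other 3 had log2 fold changes from 1.72 to 2.11. Carboxypeptidase B (isogroup1643), one of these, had an adjusted p of 0.011 in edgeR's test with all fish and under the threshold without H. carbonarium fish 6 or 7 or without H. macrostomum fish 2 or 7 (0.00556 to 0.00840). It was called as well with DESeq2 without a count filter (0.00384), with edgeR without a count filter (1.62e-04) and with edgeR on all 36 fish (0.00301). The 12 pancreas isogroups summed to 10138 to 63296 CPM in H. carbonarium (median 16699) and 416 to 9016 CPM in H. macrostomum (median 3256). None of the 19 sums was at 0.

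Among the calls, proteins of lymphocytes were lower more often than higher. Of 9 tested isogroups 4 were lower and 1 higher in H. carbonarium (55.6% called, beside 25.9% of named isogroups). With each fish left out 3 and 1 stayed called, and without H. carbonarium fish 4 the higher ones were 2. Over all 9 the median log2 fold change was -0.02, with 4 above 0 and 5 below. CD48 antigen, which binds receptors of T and natural killer cells, was lower in both called isogroups (isogroup534, log2 fold change -1.95, SE 0.30, adjusted p = 5.26e-05, and isogroup3357, log2 fold change -1.28, SE 0.27, adjusted p = 0.00134). GTPase IMAP family member 4, of a family that keeps lymphocytes alive, was lower in isogroup2126 (log2 fold change -1.31, SE 0.19, adjusted p = 3.15e-05), whereas family member 8 was higher in isogroup2408 (log2 fold change 1.48, SE 0.21, adjusted p = 2.58e-05). The 37 isogroups summed to 487 to 988 CPM in H. carbonarium and 941 to 1763 CPM in H. macrostomum. Isogroup3357 alone averaged 294 CPM in H. carbonarium and 714 CPM in H. macrostomum. None of 4 egg proteins, 3 muscle proteins and 1 heme enzyme of blood cells was called. Egg proteins summed to 144 to 1211 CPM in H. carbonarium and 91.8 to 563 CPM in H. macrostomum, and without H. macrostomum fish 4, 1 of them was called higher. The muscle list summed to 114 to 177 CPM in H. carbonarium and 97.6 to 295 CPM in H. macrostomum, and the blood list to 13.9 to 39.2 CPM in H. carbonarium and 14.3 to 57.1 CPM in H. macrostomum. Liver markers were abundant in both species: 39 isogroups summed to 38763 to 67159.9 CPM in H. carbonarium and 44209.5 to 70759 CPM in H. macrostomum. In H. carbonarium fish 1 alone the pancreas sum (63296 CPM) exceeded the liver marker sum (48622 CPM). Of that liver sum, apolipoprotein A-I made up 32642 CPM. Among the 19 liver markers tested 3 were lower and 2 higher (26.3% called, beside 25.9% of named isogroups). These 5 were isogroups of complement C3 or complement component C3, and without H. carbonarium fish 3 the lower ones were 5.

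**Figure D5:**
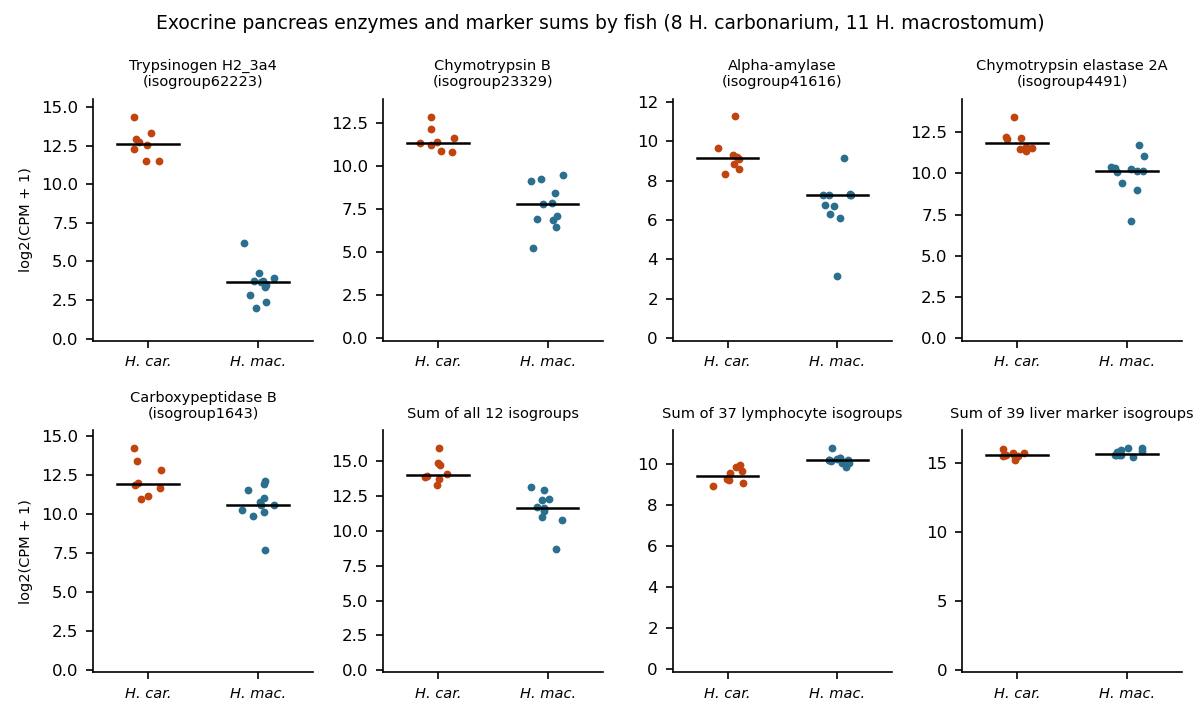
Levels as log2(CPM + 1) of 5 exocrine pancreas isogroups and of the summed pancreas, lymphocyte and liver marker isogroups, 1 point per fish, with H. carbonarium (8 fish) left of H. macrostomum (11 fish) and a bar at the median. The pancreas sum is 10138 to 63296 CPM in H. carbonarium and 416 to 9016 CPM in H. macrostomum, while the liver marker sums overlap.

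H. flavolineatum gave a further level for some of these isogroups, on a scale set over all 36 fish and as a description only. The isogroup of 7-alpha-hydroxycholest-4-en-3-one 12-alpha-hydroxylase had medians of 77.1 CPM in H. carbonarium, 297 CPM in H. macrostomum and 2.71 CPM in H. flavolineatum. For acyl-coenzyme A thioesterase 4 the medians were 128, 11.4 and 304 CPM in the same order, for beta-ureidopropionase 149, 6.85 and 85.1 CPM, and for complement factor H (isogroup929) 152, 2211 and 1129 CPM. The enzyme of bile acid synthesis was thus lowest in H. flavolineatum, and the thioesterase highest there. Some other isogroups lower in H. carbonarium were low in H. flavolineatum too. In the same order of species, medians were 0.53, 21.8 and 0 CPM for cytochrome P450 2F5 (isogroup793). For lactose-binding lectin l-2 (isogroup1539) they were 0.664, 64.7 and 0 CPM. Others were not low there, such as seizure related 6 homolog like (isogroup9440), at 0, 10.2 and 8.97 CPM. How many go each way was not counted. Reads of H. flavolineatum had been mapped to H. macrostomum as well. The study found raised egg protein genes in part of the H. flavolineatum and left those fish out of its repeated species contrasts. The medians here hold all 17 fish.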

How the data were processed

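Livers of wild fish were profiled by TagSeq, 1 library per fish. Per the study's methods, the authors removed PCR duplicates and low-quality reads with the FastX Tool Kit, mapped reads of all species with Bowtie2 to a de novo H. macrostomum transcriptome, and deposited raw counts per isogroup; versions were not given in the sources used here. No reference genome was used.

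The counts of the 19 fish were tested with edgeR 4.0.16 (quasi-likelihood test, TMM scaling, filterByExpr with a minimum count of 10, R 4.3.3), with Benjamini-Hochberg adjustment over 6861 isogroups and a threshold of 0.01. The design held species alone. The filter kept 95.5% of the counts. Standard errors were derived from the log2 fold change and its F statistic, and intervals of count ratios cover counting error only. On simulated counts for this comparison with 6861 isogroups, 11.9%, 76.1% and 97.0% of changes of 1, 2 and 3 on the log2 scale were recovered, with 2 false calls. Replicate libraries differed by more than sampling noise.

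Protein names were taken from the annotation the study supplied for its called isogroups and from the parts of its general annotation at hand. Members and lists were chosen with earlier results of these data known. Named were up to 4 called isogroups per list with the smallest p that stayed called with each fish left out, the 12 highest and 12 lowest named ones without overlap between species, the 12 most abundant, and names called in both directions with their sum. Other isogroups named to complete a count were chosen after their values were seen. Alternatives were DESeq2 1.42.0 without a count filter, other scalings and filters, all 36 fish, a threshold of 0.05, the fish number as block, sums per protein name, and each fish left out.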

Additional observations from a re-analysis of the deposited data

Results flagged for a closer look

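Of 149 sets of values tested in H. carbonarium, 13 had 1 fish far from the other 7. Chance would set apart about 1 in 20 of independent sets of normally spread values. The sets here were CPM, and some sums share isogroups with other sets, so the 13 cannot be set against that rate. Least of all does it hold for C1q isogroup33207, cytochrome P450 2J2 isogroup47871 and seizure related 6 homolog like. In these 3 of the 13 sets, 7 fish had no count and the other had 1 or 2. The 11 H. macrostomum were too many for this test.

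Fish 4 was lowest in 5 of them. It had 6.06 CPM of hepcidin isogroup13090, 692 CPM of apolipoprotein C-I, 144 CPM of intelectin-1a isogroup48155, 22.4 CPM of complement component C3 isogroup6592 and 19767 CPM of summed protease inhibitors. Fish 1 was highest in alpha-amylase (2474 CPM), chymotrypsin elastase family member 2A (11205.5 CPM) and summed egg proteins (1211 CPM). Without fish 1 the 2 enzymes had log2 fold changes of 1.80 and 1.51 and were called in edgeR's test (adjusted p = 0.00693 and 0.00664). Fish 2 was lowest in the initiation factor 4E binding protein (22.3 CPM), and fish 5 in summed lysosomal proteins (532 CPM). Fish 5 alone had a count of C1q isogroup33207 (0.804 CPM), and fish 7 alone had counts of cytochrome P450 2J2 isogroup47871 and seizure related 6 homolog like (1.39 CPM each).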

How the results depend on the processing

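Of the 104 called isogroups chosen by the naming rule, 104 stayed called with DESeq2 without a count filter and with both other edgeR scalings, 101 of 102 with all 36 fish, 100 with edgeR without a filter, and 81 with the fish number as replicate block. The 23 lost with the block include prostaglandin D synthase, elongation factor 1-beta and coagulation factor X isogroup22201. In that fit H. macrostomum fish 9, 10 and 11 had no H. carbonarium of the same number and did not bear on the species difference. The fit thus compared fewer fish, and whether a call lost there is weaker was not tested. Isogroups named only to complete a count were not followed in these settings. The naming rule favoured small p-values and calls kept with each fish left out, so these shares do not stand for all calls. Of all 795 calls, 788 and 769 were shared with the other edgeR scalings, 645 with edgeR without a filter and 458 with the block. With all 36 fish 730 of the 786 tested there were shared. The total of 795 calls (309 higher, 486 lower) became 2567 with edgeR without a count filter (1088 and 1479), 2263 with DESeq2 also without that filter (1063 and 1200), 1414 at an adjusted p under 0.05 (605 and 809), and 1160 with all 36 fish (523 and 637). Both unfiltered fits tested 54079 isogroups, so tool and filter are not separated for DESeq2, which called 793 of the 795. The 145 calls in the protein lists (41 higher, 104 lower) became 293 with edgeR without a filter (100 and 193), 289 with DESeq2 without a filter (101 and 188), and 236 at 0.05 (73 and 163). Leaving out 1 fish gave 703 to 836 calls, 258 to 339 higher and 433 to 502 lower. With edgeR without a filter, the median log2 fold change of the 6861 isogroups of the main fit shifted to -0.14. Fish numbers did not pair the samples (same-number correlations from -0.10 to 0.32, 1 of 8 best with its own number). With the number as replicate block 484 were called (164 higher, 320 lower), and the lists held 98 calls, 23 higher and 75 lower. The log2 fold changes that changed sign lay near 0. That of apolipoprotein A-I was -0.0055 with DESeq2 and -0.13 with edgeR without a filter, -0.024 with all 36 fish and -0.044 to 0.070 with 1 fish left out, and that of alpha-2-HS-glycoprotein was 0.017 with the block. The causes were not tested. Of changes of 1 on the log2 scale placed in artificial counts, 11.9% were recovered. The parts of sequencing depth and of the spread between fish in that share were not tested.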
